A study of Homo sapiens with 6 samples.

Results

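Potassium channel genes were followed in SH-SY5Y cells, an established human neuroblastoma line used as a neuronal model, after inhibition of miR-137. The genes were taken by name: every gene whose single annotated symbol starts with KCN, further letters and a number, represented by whichever of its probe sets was brightest on average over the 6 arrays. The rule found 90 genes, measured by 206 probe sets, among the 18244 genes with a symbol of their own. It also takes 3 non-coding RNAs named after channel genes (*KCNQ1OT1*, *KCNJ5-AS1* and *KCNIP4-IT1*), which are not subunit genes. Some other subunit genes of the family were not analysed here.

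In 3 samples the cells had been transfected with an anti-miR against miR-137 and in the other 3 with a negative control anti-miR, 15 pM in both cases and with the same lipid reagent. Transfection took place 24 hours after seeding, and total RNA was taken 72 hours later. The samples carry replicate numbers 1 to 3 within each treatment. The labels do not say whether a number stands for a separate culture or day, so p-values measure the spread between these samples, which may be partly technical. The stated aim was to look for possible targets of this microRNA. RNA integrity numbers were 9.5 to 9.7 in anti-miR-137 samples and 9.7 to 9.8 in control samples. All 12 measured markers of sympathetic neuroblastoma cells (such as *PHOX2A*, *HAND2*, *DBH* and *CHGA*) were above the 95th percentile of olfactory receptor genes, which served as a background level. Their mean log2 level was 12.65 to 12.76 on the anti-miR-137 arrays and 12.71 to 12.79 on the control arrays. Of markers of other cell types, 0 of 4 epithelial, 1 of 5 muscle, 2 of 4 blood, 3 of 6 glial and 4 of 6 mesenchymal genes were above that background.

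Potassium channels let potassium leave the cell, which holds the resting membrane voltage negative and ends action potentials. Voltage-gated subunits open on depolarisation, calcium- and sodium-activated ones on ion entry, inward rectifiers carry current near rest, and tandem-pore subunits give a steady leak. Accessory subunits form no pore and change the gating or transport of the others. In neuroblastoma cells the ERG and EAG channels of the KCNH family are known for setting the resting voltage and for varying with the cell cycle. The microRNA that was inhibited recognises mRNAs through its seed, bases 2 to 8, shown in capitals in its mature sequence from RefSeq (GRCh38.p14, chr1:98046091-98046113, minus strand):
hsa-miR-137-3p: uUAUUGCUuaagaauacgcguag

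Fewer potassium channel genes than other genes were bright enough to test. A gene was kept when the mean of its probe set reached 5.69 on the log2 scale, the 40th percentile over all probe sets. This kept 38 of the 90 genes (42.2%), against 12639 of 18244 genes in all (69.3%). A stricter mark, the 95th percentile of 334 olfactory receptor genes at 6.07, was passed by 30 of the 90 (33.3%) and by 64.7% of all genes. All values are log2 values from RMA, the authors' normalization. They compare 1 gene between arrays, and the brightness of different probe sets does not rank genes by their mRNA.

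**Figure D1:**
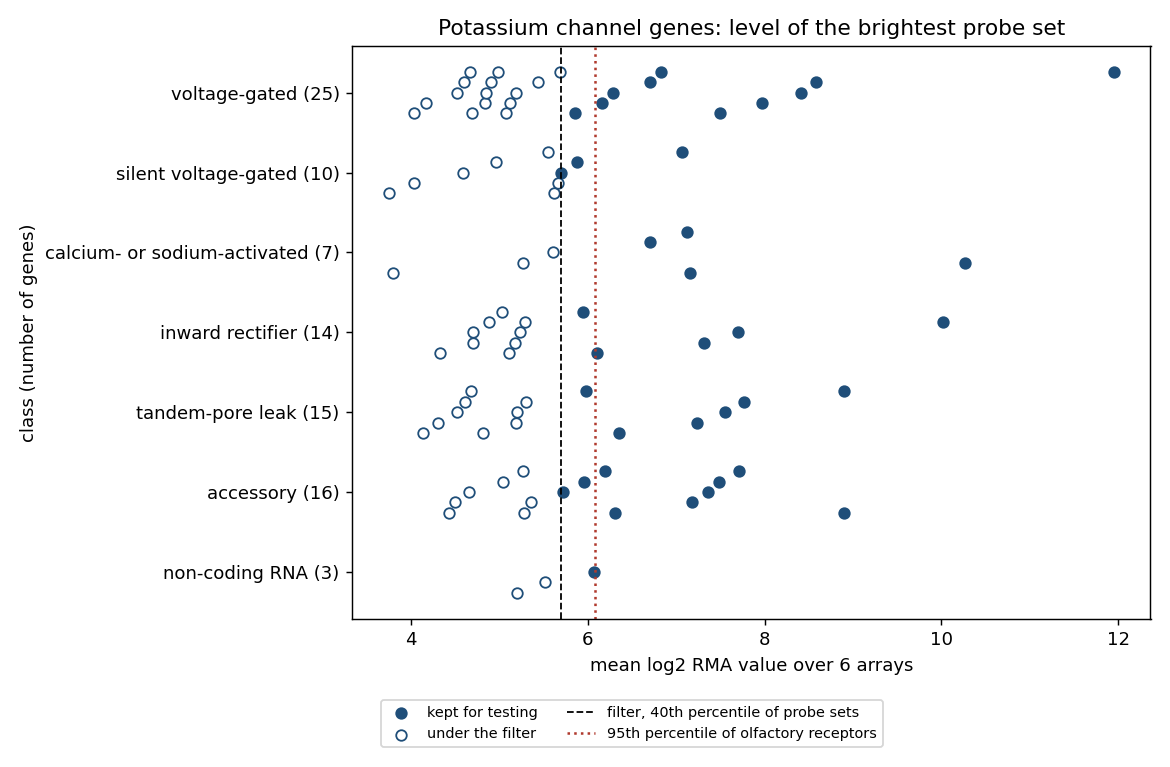
Mean log2 value over the 6 arrays (x axis) of the brightest probe set of each of the 90 genes, by class (rows, with the number of genes). Filled points are the 38 genes kept at the filter of 5.69 (dashed line); the dotted line is the olfactory receptor background of 6.07, and every class has genes on both sides of the filter.

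By class, the filter kept 10 of 25 voltage-gated, 3 of 10 silent voltage-gated, 4 of 7 calcium- or sodium-activated, 5 of 14 inward rectifier, 6 of 15 tandem-pore and 9 of 16 accessory genes, and 1 of the 3 non-coding RNAs. The classes with the greatest kept shares were the calcium- or sodium-activated genes (57.1%) and the accessory genes (56.2%). The least was that of the silent voltage-gated genes (30.0%), whose products form no channel alone and modify the Kv2 family. Next to the filter, *KCND1* (5.68) and *KCNV2* (5.66) lay just under it and *KCNS2* (5.70) and *KCNE5* (5.71) just over it. Among channels often named in neurons, *KCNQ3* (5.18) and *KCNQ5* (4.98) of the M current, *KCND2* of the A-type current (4.16), *KCNJ6* of the G protein-gated current (4.33), *KCNN3* (5.27), *KCNT1* (5.60), *KCNK2* (4.68), *KCNE1* (5.26), *KCNIP1* (5.04) and *KCNIP4* (4.49) were not kept.

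No potassium channel gene passed the test between anti-miR-137 and control cells. In limma 0 of the 38 had an adjusted p below 0.05, and the share over all 12639 genes tested was 0%. The lowest adjusted p among the 38 was 1.00. Unadjusted p-values below 0.05 were found for 3 (*KCNN1*, *KCNK6* and *KCNK4*), all with higher values in anti-miR-137 cells, against a background of 2.65% of all genes. Without control replicate 1 this count was 7, beside 4.64% of all genes, and 32 of the 38 genes had higher values. The median log2 fold change over all genes was then 0.0049. With all arrays, higher values in anti-miR-137 cells were measured for 23 genes (60.5%) and lower values for 15, beside 52.0% higher over all genes tested, and the tallies by class given below are counts of few genes. The log2 fold changes (anti-miR-137 over control) ran from -0.17 to 0.29 with a median of 0.02, beside a median of 0.0033 over all genes tested. With median centring on top the split was 19 higher and 19 lower, and the median over all genes moved to -0.013. The 95% confidence interval lay within 0.5 log2 units of 0 for 34 of the 38 genes (89.5%), and the same held for 95.5% of all genes. In RNA of whole samples, a change in fewer cells and a smaller change in every cell cannot be told apart.

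The 2 groups did not overlap for 3 of the 38 genes, the same 3, beside 7.36% of all genes. *KCNN1* encodes the SK1 subunit of small-conductance channels that open on calcium entry. It measured 7.29, 7.22 and 7.34 on the anti-miR-137 arrays of replicates 1 to 3, against 7.09, 6.95 and 7.01 on the control arrays. All anti-miR-137 values were thus above all control values, with a log2 fold change of 0.26 (standard error 0.066, unadjusted p = 0.0048 in limma, adjusted p = 1.00). Of its 3 other probe sets, 1 above the filter gave 0.18, and those under it gave -0.0061 and -0.09.

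*KCNK6*, the tandem-pore subunit TWIK2, measured 6.24, 5.98 and 6.14 on the anti-miR-137 arrays, against 5.82, 5.87 and 5.80 on the control arrays. Its log2 fold change was 0.29 (standard error 0.078, unadjusted p = 0.0067 in limma, adjusted p = 1.00), the greatest of the 38. The gene was dim, with a mean of 5.98, which is under the olfactory receptor mark. Another probe set above the filter gave 0.33, and one under the filter gave -0.0042.

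*KCNK4*, the mechanosensitive tandem-pore subunit TRAAK, measured 7.65, 7.61 and 7.68 on the anti-miR-137 arrays, against 7.53, 7.37 and 7.44 on the control arrays. The log2 fold change was 0.20 (standard error 0.066, unadjusted p = 0.018 in limma, adjusted p = 1.00). Its 2 other probe sets gave -0.14 and -0.13, and with its probe sets above the filter averaged the log2 fold change was 0.03.

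**Figure D2:**
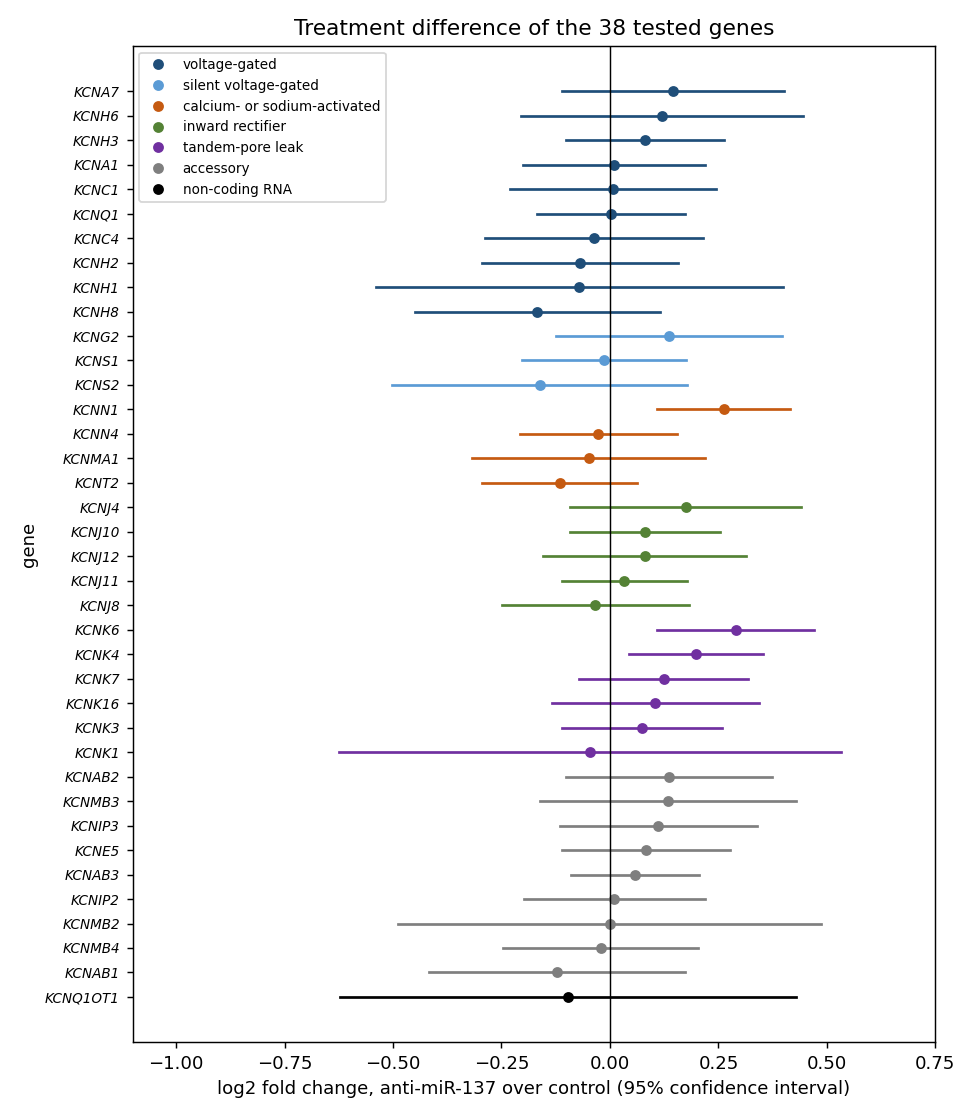
Log2 fold change of anti-miR-137 over control (x axis, points) with its 95% confidence interval (lines) for the 38 kept genes, ordered and coloured by class. The intervals of *KCNN1*, *KCNK6* and *KCNK4* lie above 0 and those of all other genes include 0; no gene passed the adjusted threshold.

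The class of tandem-pore genes had 5 of 6 higher values in anti-miR-137 cells (median log2 fold change 0.11). *KCNK7*, for which no current of its own is known, had 0.12, and *KCNK16*, known from pancreas, had 0.10. *KCNK3*, the acid-sensitive TASK1, had 0.07 (95% confidence interval -0.11 to 0.26). The 1 lower value was that of *KCNK1*, the weakly conducting TWIK1, at -0.05 with a wide interval of -0.62 to 0.53. The treatment model held no term for replicate number, so spread between the numbers is part of the width of each interval.

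Inward rectifiers had 4 of 5 higher values (median 0.08). *KCNJ4*, the strong rectifier Kir2.3, measured 6.21, 6.03 and 5.87 on the anti-miR-137 arrays, against 6.05, 5.77 and 5.76 on the control arrays. The groups overlapped, and the log2 fold change was 0.17 with an interval of -0.09 to 0.44. *KCNJ11* and *KCNJ8*, which encode the pores of the ATP-sensitive channels, had 0.03 (-0.11 to 0.18) and -0.03 (-0.25 to 0.18). *KCNJ12* and *KCNJ10*, the second of them a glial channel in brain, had 0.08 each.

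Voltage-gated genes had 6 higher and 4 lower values (median 0.0046). *KCNH2*, the ERG channel of the cardiac rapid delayed rectifier, measured 11.88, 11.81 and 12.08 on the anti-miR-137 arrays, against 11.88, 11.97 and 12.13 on the control arrays. The groups overlapped, with a log2 fold change of -0.07 (-0.30 to 0.16). Its relative *KCNH8* of the ELK group had the lowest value of the class, -0.17 (-0.45 to 0.12), and *KCNH6*, a further ERG gene, had 0.12 (-0.20 to 0.45). The EAG gene *KCNH1* had -0.07 (-0.54 to 0.40). *KCNC1* and *KCNC4*, subunits of the fast-acting Kv3 channels, had 0.0072 and -0.04, the axonal subunit *KCNA1* had 0.0096, and *KCNQ1* had 0.0019. The values of *KCNA7* (0.14) and *KCNH3* (0.08) also had intervals that included 0.

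Of the calcium- or sodium-activated genes, *KCNN1* was the 1 with a higher value. *KCNT2*, the sodium-activated subunit Slick, measured 10.22, 10.30 and 10.13 on the anti-miR-137 arrays, against 10.36, 10.41 and 10.23 on the control arrays. It was lower within every replicate number, with a log2 fold change of -0.12 (-0.29 to 0.06). *KCNMA1*, the pore of the large-conductance BK channel, had -0.05 and the intermediate-conductance *KCNN4* -0.03.

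Accessory genes had 6 higher and 3 lower values (median 0.06). The Kv1 beta subunits *KCNAB2*, *KCNAB3* and *KCNAB1* had 0.14, 0.06 and -0.12. Among BK beta subunits, *KCNMB3* had 0.13, *KCNMB4*, the neuronal one, -0.02, and *KCNMB2* -0.00072. The Kv4 partners *KCNIP3* and *KCNIP2* had 0.11 and 0.01, and *KCNE5* had 0.08. The silent subunits *KCNG2*, *KCNS1* and *KCNS2* had 0.14, -0.01 and -0.16, and *KCNQ1OT1* had -0.10 with the wide interval -0.62 to 0.43. Each of these intervals included 0.

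Within the replicate numbers, 8 of the 38 genes were higher in the anti-miR-137 array of all 3 numbers and 4 were lower in all 3. The background was 15% and 13.2% of all genes. The 8 were *KCNN1*, *KCNK6*, *KCNK4*, *KCNK7*, *KCNK3*, *KCNJ4*, *KCNJ11* and *KCNE5*, so 4 of them were tandem-pore genes. The 4 were *KCNH2*, *KCNH8*, *KCNT2* and *KCNAB1*. Probe sets of 1 gene often differed: of 32 kept genes with more than 1 probe set, 10 had the same sign of treatment difference on all of them and 22 did not.

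The 52 genes that were not kept, and so not tested, gave 42 higher against 10 lower means in anti-miR-137 cells (80.8% higher). Of all genes that were not kept, 65.1% had higher values. Dim genes as a whole therefore leaned the same way. The groups did not overlap for 9 of the 52 (17.3%), beside 10.7% of all genes not kept. *KCNF1* (0.32), *KCNJ15* (0.26), *KCNIP4* (0.18), *KCNE2* (0.11), *KCNJ5* (0.11), *KCNK2* (0.11), *KCNK12* (0.10) and *KCNJ5-AS1* (0.05) were the 8 with higher values, and *KCNG1* (-0.15) was the 1 with lower values. All of these lay under 5.69.

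Differences between replicates 3 and 1 were mostly larger in size than those between treatments, though each is a difference of means over 2 arrays, not 3. The replicate 3 and replicate 1 arrays differed by a median of 0.15 log2 units in size over the 38 genes, against 0.08 for the treatments, and for 28 of the 38 genes the difference between numbers was the greater one. The medians over all genes had the same order, at 0.12 and 0.05. With treatment kept in the model, limma's F test over the 3 numbers called *KCNH1* and *KCNK1* (adjusted p = 0.036 and 0.038), 2 of 38 genes beside 2.53% of all genes. Replicate 3 minus replicate 1 called 4 genes, all lower in replicate 3: *KCNH1*, *KCNQ1OT1*, *KCNK1* and *KCNJ4*. Of these, *KCNQ1OT1* (mean 6.06) and *KCNJ4* (5.95) lay under the olfactory receptor mark of 6.07. The background of that contrast was 8.23% of all genes, 4.39% higher and 3.84% lower. Replicate 3 minus 2 and replicate 2 minus 1 called 0 of the 38 in limma, beside 0.00791% and 0.0316% of all genes.

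With any 1 array left out, a number is left with 1 array and the model with 1 residual degree of freedom. In limma the calls of replicate 3 minus 1 were lost when any 1 of the 4 arrays of replicates 1 and 3 was left out. Nearly all calls over all genes were lost with them. Potassium channel genes were still called without an array of replicate 2. The differences kept their sign with any array left out, at -0.69 to -0.58 for *KCNH1*, -0.86 to -0.46 for *KCNQ1OT1*, -0.57 to -0.40 for *KCNK1* and -0.36 to -0.26 for *KCNJ4*.

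*KCNH1* encodes the voltage-gated channel EAG1, which is known for its expression in many tumours. It measured 8.83, 8.59 and 8.23 on the anti-miR-137 arrays of replicates 1, 2 and 3, against 8.97, 8.59 and 8.30 on the control arrays. In both treatments the replicate 3 array was lowest and the replicate 1 array highest, and the treatments differed by at most 0.14 within a number. Replicate 3 minus replicate 1 was -0.64 log2 units (standard error 0.066, adjusted p = 0.016 in limma). Its other probe set, under the filter at a mean of 5.17, gave 0.02.

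*KCNK1* measured 9.36, 8.43 and 8.85 on the anti-miR-137 arrays, against 9.28, 8.66 and 8.82 on the control arrays. Replicate 2 was lowest in both treatments and replicate 1 highest. Replicate 3 minus replicate 1 was -0.48 (standard error 0.090, adjusted p = 0.035 in limma), and replicate 2 minus replicate 1 was -0.78 (adjusted p = 0.075). The other probe set of the gene had the same order, with -0.27 between replicates 3 and 1.

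*KCNQ1OT1*, the long antisense RNA of the imprinted *KCNQ1* locus, measured 6.53, 5.84 and 5.67 on the anti-miR-137 arrays, against 6.36, 6.08 and 5.89 on the control arrays. Replicate 3 minus replicate 1 was -0.66 (standard error 0.11, adjusted p = 0.029 in limma). Its host *KCNQ1* had -0.13 (adjusted p = 0.28). *KCNJ4*, whose values are given above, had -0.31 (adjusted p = 0.048 in limma), close to the threshold. It did not pass under several alternatives, among them quantile normalization, median centring and cyclic loess on top (adjusted p = 0.057 in each). With median centring 4 members were still called, so a gene outside the 4 reported here passed there.

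**Figure D3:**
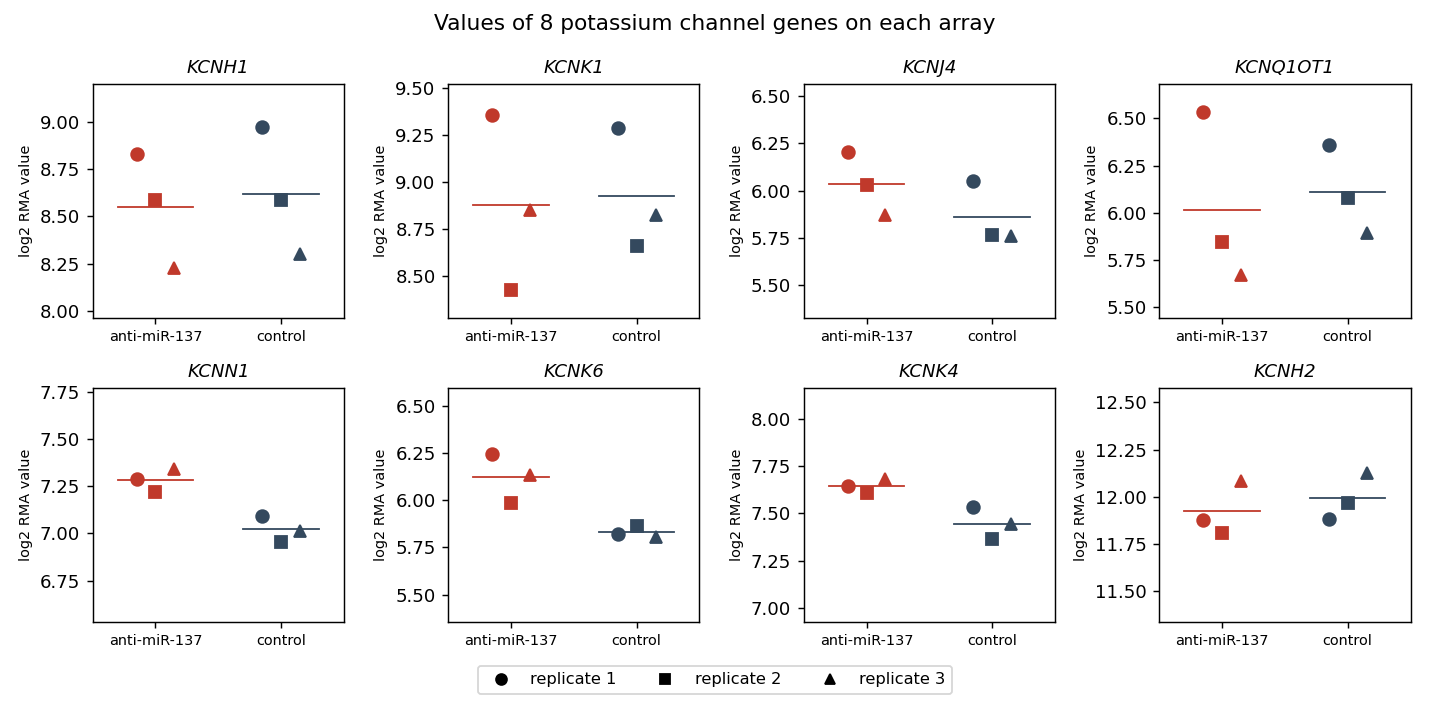
Log2 values of 8 genes on each array (y axis; every panel has the same height in log2 units, placed at the gene's own level), anti-miR-137 at the left and control at the right of each panel; circles, squares and triangles are replicates 1, 2 and 3, and lines are group means. The upper row shows the 4 genes that differed between replicates 3 and 1, with circles highest in both treatments; the lower row shows the 3 genes whose treatment groups did not overlap, and *KCNH2*.

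The 3 protein-coding genes among these 4 differ in the CG content of their start regions, with *KCNJ4* apart from *KCNH1* and *KCNK1*. RefSeq gives 1 start window for each, and the 100 bases before the start (GRCh38.p14) are shown with CG dinucleotides in capitals, to set side by side genes that were called in the same contrast. The window of *KCNH1* is at chr1:211134149-211134248 (minus strand), that of *KCNK1* at chr1:233614006-233614105 (plus strand) and that of *KCNJ4* at chr22:38444029-38444128 (minus strand):
KCNH1: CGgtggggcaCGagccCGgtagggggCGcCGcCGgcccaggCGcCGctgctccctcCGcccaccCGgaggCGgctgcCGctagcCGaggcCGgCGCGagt
KCNK1: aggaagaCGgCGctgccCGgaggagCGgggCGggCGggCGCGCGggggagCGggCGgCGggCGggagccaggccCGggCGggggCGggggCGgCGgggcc
KCNJ4: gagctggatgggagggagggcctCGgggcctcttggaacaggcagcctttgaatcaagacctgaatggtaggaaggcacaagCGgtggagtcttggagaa
The printed stretches hold 16, 18 and 2 CG dinucleotides in *KCNH1*, *KCNK1* and *KCNJ4*. In the full windows of 250 bases before and 50 after the start there were 32, 38 and 4, beside a median of 14 over all 35116 windows of the table, of which 96.0% held at least 1. CG reads the same on both strands. This is a description of the sequences and says nothing of how the genes are regulated.

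Lower values in replicate 3 than in replicate 1 were common across the family. Of the 38 genes, 32 had lower and 6 higher values in replicate 3 (84.2% lower), beside 53.0% lower among all genes tested, and the median difference was -0.12, beside -0.01 over all genes. The count of lower values was 32, 31 and 32 with quantile normalization, median centring and cyclic loess on top. It was 30 and 32 without the anti-miR-137 array of replicate 1 or 3, but 22 without control replicate 1 and 27 without control replicate 3. Signal level moved with this measure. Among kept genes under the 60th percentile, 19 of 21 potassium channel genes were lower in replicate 3, against 67.3% of all genes there. At or over it, 13 of 17 were lower, against 48.0% of all genes. The part of signal level in the difference was not tested.

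The 6 genes with higher values in replicate 3 were *KCNH8*, *KCNH2*, *KCNC1*, *KCNK3*, *KCNMA1* and *KCNIP3*, and none passed. *KCNH8* measured 7.19, 7.39 and 7.63 on the anti-miR-137 arrays of replicates 1 to 3, against 7.43, 7.65 and 7.65 on the control arrays, with 0.33 log2 units between replicates 3 and 1 (adjusted p = 0.063 in limma). Its other probe set, under the filter, had -0.21. *KCNH2* had 0.23 (adjusted p = 0.099), and its 2 other probe sets had 0.09 and 0.16. *KCNC1* had 0.21, *KCNMA1* 0.16 and *KCNIP3* 0.05.

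*KCNK3* differed by probe set. Its brightest one measured 7.73, 7.79 and 7.90 on the anti-miR-137 arrays, against 7.63, 7.74 and 7.84 on the control arrays, with 0.19 between replicates 3 and 1 (adjusted p = 0.11 in limma). Another one, singled out after its values were seen, measured 6.07, 6.67 and 7.19 on the anti-miR-137 arrays, against 6.31, 6.96 and 7.16 on the control arrays. That is 0.99 log2 units between replicates 3 and 1, and it passed when probe sets with the suffixes _x_at and _s_at were left out (adjusted p = 0.011). The 2 others had -0.04 and 0.14.

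**Figure D4:**
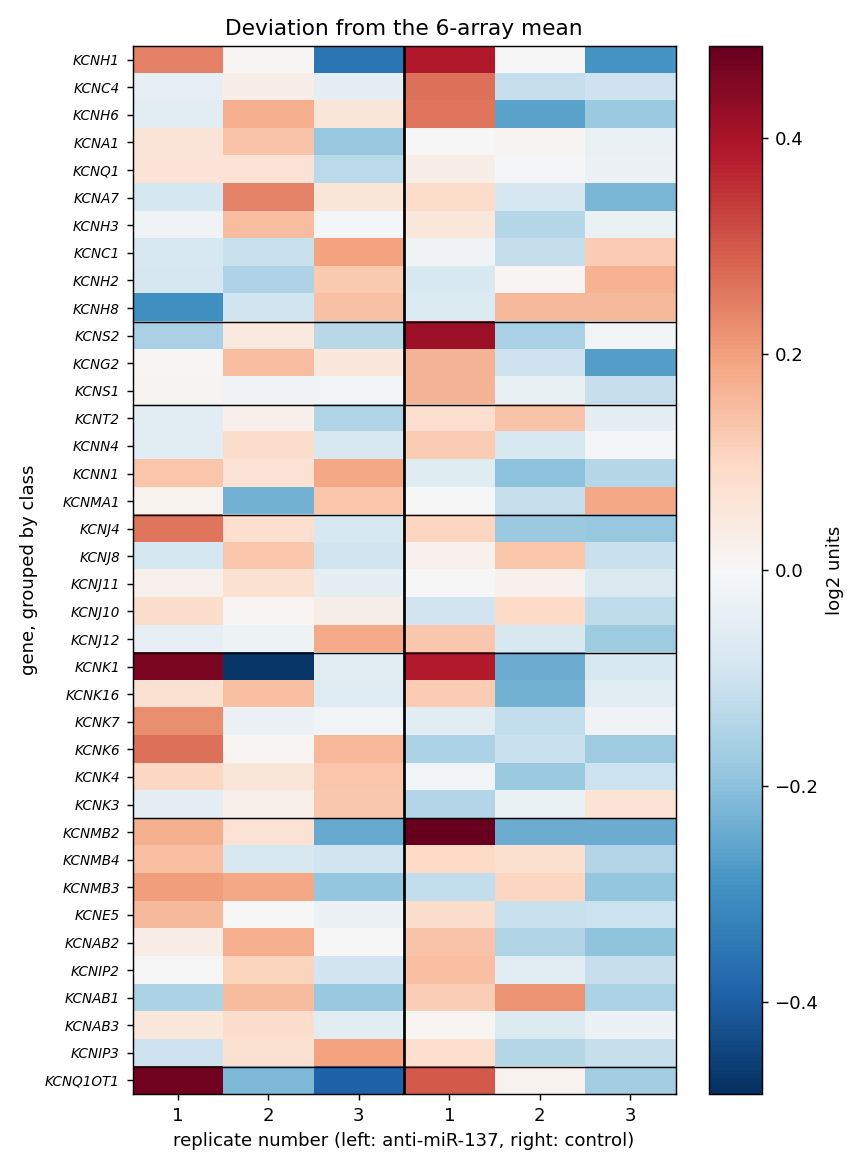
Deviation of each of the 38 kept genes (rows, separated by class) from its own 6-array mean, in log2 units, on the anti-miR-137 arrays (left) and control arrays (right) of replicates 1 to 3. Above their mean were 22, 27 and 14 of the 38 genes on the anti-miR-137 arrays of replicates 1 to 3, and 27, 12 and 5 on the control arrays; the order of *KCNH1* and *KCNK1* is the same in both treatments.

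Accessory genes, like the family as a whole, were mostly lower in replicate 3, without passing the test. Of the 9 kept, 8 were lower in replicate 3, beside 84.2% of the 38 genes. Their median was -0.18, and 0 passed. *KCNMB2* measured 7.53, 7.42 and 7.11 on the anti-miR-137 arrays, against 7.84, 7.11 and 7.11 on the control arrays, so that control replicate 1 stood highest. Its difference between replicates 3 and 1 was -0.57 (adjusted p = 0.067 in limma). The 6 other probe sets of *KCNMB2*, all under the filter, gave -0.10 to 0.06. *KCNMB4* had -0.24 (adjusted p = 0.11) and *KCNE5* -0.19 (adjusted p = 0.11). The 5 kept inward rectifiers were all lower, with a median of -0.07, and *KCNJ8* and *KCNJ11* had -0.07 each. Other classes leaned the same way, with 7 of 10 voltage-gated and 3 of 3 silent voltage-gated genes lower. So were 5 of 6 tandem-pore and 3 of 4 calcium- or sodium-activated genes.

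Genes that work with potassium channels but do not share their symbols were described in the same way. The list held 61 genes, among them accessory proteins of Kv2, Kv4 and BK channels, sulfonylurea receptors, the sodium pump, sodium and HCN channels and anchors of the axon initial segment. Of these, 49 were measured and 31 kept. For treatment, 16 gave higher means and 15 lower (median 0.0058), beside 52.0% higher over all genes tested. In limma 0 passed, beside 0% of all genes, and 1 had an unadjusted p under 0.05, beside 2.65% of all genes. That gene was *HCN3*, a hyperpolarisation-activated cation channel, at 6.90, 6.84 and 7.08 on the anti-miR-137 arrays, against 7.22, 7.40 and 7.08 on the control arrays. The groups did not overlap, in this 1 of the 31 genes only, beside 7.36% of all genes, but they met in replicate 3. The log2 fold change was -0.30 (adjusted p = 1.00). It was 0.22 on the probe set that remained without _x_at and _s_at suffixes. *SPTBN4*, a spectrin of the initial segment, had 0.20, and the sodium pump subunits *FXYD6* and *ATP1B2* had 0.22 and 0.13, each with an interval that included 0.

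Between replicates 3 and 1, 19 of the 31 partner genes had lower and 12 higher values in replicate 3. The share of lower values over all genes tested was 53.0%. Limma called 6 of the partner genes, 5 lower and 1 higher, beside 8.23% of all genes (3.84% lower and 4.39% higher). They are named here after their values were seen. *ABCC9*, a sulfonylurea receptor that pairs with the products of *KCNJ8* and *KCNJ11*, measured 9.59, 9.74 and 9.22 on the anti-miR-137 arrays of replicates 1 to 3, against 9.72, 9.83 and 9.23 on the control arrays. Replicate 3 was lowest in both treatments, with -0.44 log2 units between replicates 3 and 1 (adjusted p = 0.023). *DPP10*, an accessory protein of Kv4 channels, had -0.59 (adjusted p = 0.031). *FGF14* and *NRCAM*, which act at the initial segment, had -0.41 and -0.34, and the sodium pump subunit *ATP1B1* had -0.31. *SCN3B*, a beta subunit of sodium channels, had 0.64 (adjusted p = 0.015). The transcriptional repressor *REST*, which is known to hold down neuronal channel genes, measured 6.29, 6.27 and 6.31 on the anti-miR-137 arrays, against 6.64, 6.17 and 6.31 on the control arrays. Its groups overlapped, with a log2 fold change of -0.08 (-0.35 to 0.19).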

How the data were processed

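The authors deposited log2 values per probe set from 1-colour oligonucleotide arrays, made with RMA in R 3.0.1 per the submitters' processing notes; RMA makes the arrays' distributions alike, so a shift of all transcripts could not be seen. With 3 arrays a group, precision is set by that number. Of 49393 probe sets besides 102 controls, 45278 had 1 gene symbol in the platform annotation (1333 several, 2782 none here); 45208 matched the RefSeq gene table of GRCh38.p14, with 0 symbols changed. Probe sets with a mean at or over the 40th percentile were kept, with the brightest for each gene (12639 genes). Tests used limma 3.58.1 under R 4.3.3 (lmFit and eBayes, two-sided, Benjamini-Hochberg over all 12639 genes, threshold 0.05): treatment alone, and replicate number with treatment as a term. The steps were tested on simulated data. Named genes were the 6 of each direction with the smallest unadjusted p in each comparison, a list of well-known channels, and 4 partner genes; others account for their class. The genes and lists were chosen with earlier results of these data known. Alternatives were other filters, probe set choices, normalizations, variance priors, array weights, covariates and leaving out each array. Sequences are from RefSeq, with start windows for 69 of the 90 genes.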

Additional observations from a re-analysis of the deposited data

How the results depend on the processing

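For treatment, 0 potassium channel genes and 0 partner genes had an adjusted p below 0.05 in limma in all alternatives run, and likewise 0 with any array left out. The numbers of the replicates were not taken as pairs, since the correlation between the deviations of equally numbered arrays over 12639 genes was 0.55 for number 1 and 0.65 for number 3, but 0.073 for number 2. Each array's values were most like those of its own number, a hint from the data alone; in deviations, replicate 2 of anti-miR-137 came nearest to replicate 1 of control (0.16). Under the replicate block, 0 members passed and 5 members were at an unadjusted p under 0.05, beside 6.45% of all genes. The count of 3 as reported was 5 without the filter (of 90, with 3.52% of all genes) and 1 with the stricter filter (1.80%). It was 8 with array weights (8.63% of all genes) and 2 to 7 with an array left out. The 2 was without control replicate 2 (2.09% of all genes) and the 7 without control replicate 1 (4.64%). The median log2 fold change was 0.020 to 0.086 with an array left out. Members called between replicates 3 and 1, 4 as reported, were 1 without the filter, beside 169 of 18244 genes in all. They were 2 without _x_at, _s_at and _a_at probe sets (19 members left), beside 241 of 4055 genes. With a trended variance prior they were 7, beside 2305 of 12639 genes. For the F test, no share over all genes is given for these alternatives, so its counts cannot be set against a background. Members called by it, 2 as reported, were 0, 1 and 6 in the same order. The cause of these changes was not tested.

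Signs of uncalled genes that turned for treatment were, with probe sets averaged, *KCNMA1* 0.017, *KCNC4* 0.085 and *KCNK3* -0.015; without _x_at, _s_at and _a_at, *KCNAB2* -0.16 (0.023 between replicates 3 and 1), *KCNK3* -0.17 and *HCN3* 0.22; without _x_at and _s_at (chosen after seeing the data), *KCNK3* -0.17, *HCN3* 0.22 and *FXYD6* -0.053. They were also *KCNA1* -0.0066 and *KCNC1* -0.0089 with median centring, *KCNA1* -0.0062 with cyclic loess and -0.019 with the RNA integrity number, and *KCNS2* 0.0084 and *KCNC4* 0.049 with array weights. With an array left out, the treatment range crossed 0 for *KCNA1* (-0.057 to 0.10), *KCNC1* (-0.088 to 0.071), *KCNC4* (-0.10 to 0.087), *KCNH1* (-0.23 to 0.11), *KCNMA1* (-0.13 to 0.052), *KCNMB4* (-0.099 to 0.022), *KCNQ1OT1* (-0.35 to 0.077) and *KCNS2* (-0.28 to 0.0052), and replicate 3 minus 1 for *KCNC4* (-0.39 to 0.014), *KCNH6* (-0.49 to 0.16) and *KCNIP3* (-0.17 to 0.27).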
